A study of Mus musculus with 6 samples.

Results

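Immunoglobulin and B-lineage transcripts were examined in whole mouse liver through 8 genes: Ighm, Igha, Igkc, Jchain, Mzb1, Cd79a, Cd79b and Ms4a1. The genes were chosen by name as markers of B cells and plasma cells, with earlier results of these data known. Their symbols were matched to the Ensembl identifiers of the count files. All 8 of the 8 symbols matched, among 54232 genes counted. The study compared DKO livers, from Fxr-/-Xbp1LKO mice that lack the bile acid receptor FXR and carry a liver-specific deletion of Xbp1, with SKO livers, from Fxr-/-Xbp1fl/fl mice that lack FXR and keep Xbp1. All mice were male, chow-fed, 8 to 10 weeks old and of the C57BL/6 strain, and both groups lacked FXR. Total RNA was extracted with Trizol, and 3 DKO and 3 SKO libraries were sequenced. The labels name no Cre driver for the liver-specific deletion, and mice with intact FXR were not analysed here.

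B cells carry an antibody on their surface as the B-cell receptor, in which the products of Cd79a and Cd79b relay the signal of the bound antibody. Naive B cells use the mu and delta heavy chains, encoded by Ighm and Ighd. After activation, class switching joins the same variable region to a gamma, epsilon or alpha constant region, and plasma cells secrete the product in large amounts. In plasma cells XBP1 is a transcription factor that expands the secretory machinery. IgM and IgA form polymers held together by the J chain, and the polymeric immunoglobulin receptor carries these polymers across epithelia, in rodents also from hepatocytes and bile ducts into bile. Most of the liver's mass is hepatocytes, and B cells are a minor population there.

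The tail that lets mu and alpha chains join J chain is encoded at the 3′ end of their secreted coding sequence, and both ends are shown because Ighm and Igha carried the opposite changes described below. The sequences are the last 57 coding bases on the minus strand of GRCm38, from GENCODE M21 transcripts, with the codon of the cysteine that forms the polymer bond in capitals; 38 of the 57 bases were identical.
Ighm, chr12:113420867-113420923: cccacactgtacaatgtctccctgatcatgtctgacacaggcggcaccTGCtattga
Igha, chr12:113258768-113258824: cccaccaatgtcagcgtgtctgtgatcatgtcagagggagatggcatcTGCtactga

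Total counts were 16966422 to 21107674 per library, so that 3 counts corresponded to 0.126 to 0.191 CPM, the normalised counts-per-million unit used here, in which counts are scaled by the library total and its TMM factor. TMM factors were 1.05 to 1.129 in DKO and 0.903 to 0.951 in SKO. Xbp1, the targeted gene (chromosome 11, 5520659 to 5525893), was at 95.7, 67.0 and 68.2 CPM in DKO against 225, 260.3 and 254.3 CPM in SKO, a difference of -1.68 on the log2 scale (SE 0.14, edgeR quasi-likelihood test, adjusted p = 0.000146). The labels do not state which bases are deleted, so a count over the whole gene can keep reads from the rest of it. The 7 hepatocyte markers examined summed to 52170 to 63561 CPM in DKO and 80468 to 108141 CPM in SKO, so markers of the labelled tissue were abundant in both groups. Of 13986 genes tested, 2803 were called at an adjusted p under 0.05 (20.0%), 10.3% of those tested being called higher in DKO and 9.70% lower. DKO replicate 1 had the highest level of its group for each of the 8 genes except Cd79a. The labels do not say that libraries came from separate mice, and 3 DKO titles and 1 SKO title carry 2 numbers each, so the p-values reflect only how these libraries varied, which may be technical, and any pooling is unknown.

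Among the 8 genes, 7 were abundant enough to be tested, of which Igha, Igkc and Jchain were called higher in DKO, Ighm was called lower and 3 genes were not called. The 3 higher and 1 lower calls among 7 stand beside background shares of 10.3% and 9.70%. The libraries of the groups did not overlap for 4 of the 7, while this held for 39.6% of all genes tested. The genes were chosen with earlier results of these data known, so neither comparison is independent support. Transcripts of the mu heavy chain were thus lower in DKO, while those of the alpha heavy chain, the kappa light chain and the J chain were higher. The Igkc call was kept in 3 and the Jchain call in 1 of the 6 fits that left out a library. The B-cell surface genes Cd79a, Cd79b and Ms4a1 did not pass the test. In a bulk sample, a difference in the number of cells of a type and a difference in RNA per cell cannot be told apart.

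**Figure D1:**
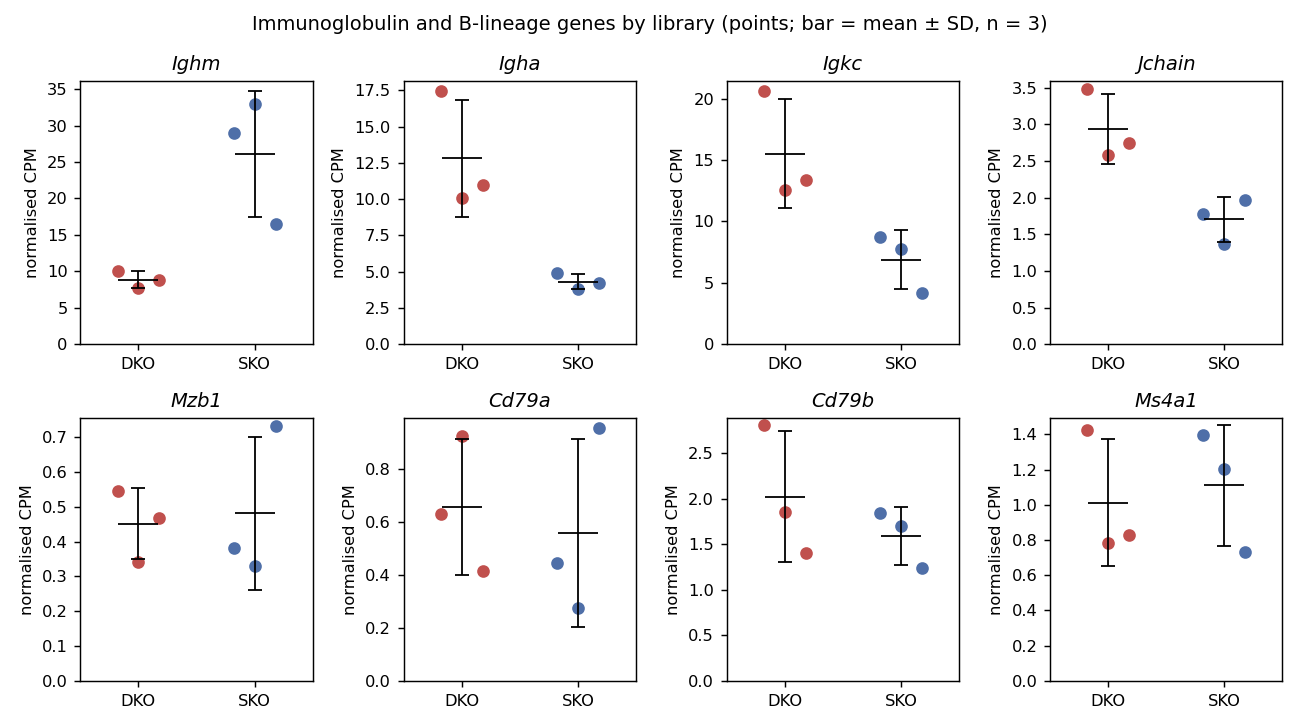
Normalised CPM (vertical axis, from 0) of the 8 genes in each library, DKO left and SKO right; points are libraries and bars the mean ± SD of 3. The groups do not overlap for Ighm, which is lower in DKO, nor for Igha, Igkc and Jchain, which are higher in DKO, and overlap for the other genes.

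Ighm encodes the constant region of the mu heavy chain (ENSMUSG00000076617, chromosome 12, 113418558 to 113422730, minus strand, GRCm38). Its level was 9.99, 7.71 and 8.86 CPM in DKO, against 29.0, 32.9 and 16.4 CPM in SKO. All DKO libraries lay below all SKO libraries, and SKO replicate 3 was the lowest of its group. The means were 8.86 ± 1.14 CPM in DKO and 26.1 ± 8.63 CPM in SKO (SD, n = 3 each), a 2.94-fold higher level in SKO. The log2 fold change was -1.56 ± 0.27 (SE; edgeR quasi-likelihood test, adjusted p = 0.0098). The call was kept in each of the 6 fits that left out 1 library.

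Igha, the constant gene of the IgA heavy chain (ENSMUSG00000095079, chromosome 12, 113254830 to 113260236, minus strand), moved the other way. It was at 17.5, 10.1 and 11.0 CPM in DKO, against 4.89, 3.84 and 4.22 CPM in SKO. The lowest DKO library was above the highest SKO library, and the spread was wider in DKO. Mean levels were 12.8 ± 4.03 CPM in DKO and 4.32 ± 0.534 CPM in SKO (SD, n = 3 each), a 2.99-fold difference. The log2 fold change was 1.58 ± 0.23 (SE; edgeR adjusted p = 0.00212), and this call too was kept in each of the 6 fits that left out 1 library.

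Igkc encodes the constant region of the kappa light chain, which pairs with every class of heavy chain (ENSMUSG00000076609, chromosome 6, 70726435 to 70726966, plus strand). Levels were 20.6, 12.5 and 13.4 CPM in DKO, against 8.77, 7.73 and 4.17 CPM in SKO. The groups did not overlap, and their means were 15.5 ± 4.43 CPM in DKO and 6.89 ± 2.41 CPM in SKO (SD, n = 3 each). The log2 fold change was 1.18 ± 0.31 (SE; edgeR adjusted p = 0.0385). The call was lost without DKO replicate 1 (0.92, edgeR adjusted p = 0.0662), without DKO replicate 3 (1.27, edgeR adjusted p = 0.068) and without SKO replicate 2 (1.27, edgeR adjusted p = 0.102).

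Jchain, which encodes the joining chain of IgM and IgA polymers (ENSMUSG00000067149, chromosome 5, 88519809 to 88527891, minus strand), was at 3.48, 2.59 and 2.75 CPM in DKO and 1.78, 1.37 and 1.97 CPM in SKO. The gap between the groups was narrow, with SKO replicate 3 closest to DKO. Means were 2.94 ± 0.478 CPM in DKO and 1.71 ± 0.306 CPM in SKO (SD, n = 3 each), a difference of 0.79 on the log2 scale (SE 0.23; edgeR adjusted p = 0.0387). The call was close to the threshold: DESeq2 gave an adjusted p of 0.0578, and the edgeR call was kept in only 1 of the 6 fits that left out a library, that without DKO replicate 2.

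The 2 signalling chains of the B-cell receptor gave overlapping groups. Cd79b (ENSMUSG00000040592, chromosome 11, 106311341 to 106314762, minus strand) had 67, 38 and 27 counts in DKO and 29, 31 and 22 counts in SKO, which is 2.02 ± 0.721 CPM in DKO and 1.59 ± 0.316 CPM in SKO (SD, n = 3 each). DKO replicate 1 was the highest library, and DKO replicate 3 lay within the SKO range. The log2 fold change was 0.36 ± 0.30 (SE; edgeR adjusted p = 0.445), and the ratio of normalised counts was 1.31 with a 95% counting interval of 0.987 to 1.75. Cd79a (ENSMUSG00000003379, chromosome 7, 24897381 to 24902197, plus strand) had 15, 19 and 8 counts in DKO and 7, 5 and 17 counts in SKO. At this depth its log2 fold change was 0.23 ± 0.49 (SE; edgeR adjusted p = 0.775), and without each library in turn it ranged from -0.11 to 0.88. It passed the filter on low counts, which asked for about 0.526 CPM in 3 libraries, through 2 DKO libraries and 1 SKO library.

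Ms4a1 encodes CD20, a surface protein of mature B cells that plasma cells lose (ENSMUSG00000024673, chromosome 19, 11249675 to 11266241, minus strand). It had 34, 16 and 16 counts in DKO and 22, 22 and 13 counts in SKO. The groups overlapped, at 1.01 ± 0.360 CPM in DKO and 1.11 ± 0.343 CPM in SKO (SD, n = 3 each). The log2 fold change was -0.11 ± 0.35 (SE; edgeR adjusted p = 0.861) and turned to 0.12 when libraries were scaled by total counts, so no direction is given. The ratio of normalised counts was 0.942, with a 95% counting interval of 0.651 to 1.37.

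Mzb1, which encodes a chaperone of the endoplasmic reticulum that aids antibody assembly in marginal zone B cells and plasma cells (ENSMUSG00000024353, chromosome 18, 35647267 to 35649367, minus strand), was below the filter. It had 13, 7 and 9 counts in DKO and 6, 6 and 13 counts in SKO. The groups overlapped, and 29 counts in DKO stood against 25 in SKO, a normalised ratio of 0.944 with a 95% counting interval of 0.534 to 1.68. A two-sided exact permutation test over the 6 libraries gave p = 0.9, where the smallest p it allows is 0.1. The annotated gene SPATA24, which overlaps Mzb1 on the same strand and holds 53.5% of its 50-base stretches, was not among the genes counted in the files used here. Counting intervals cover counting error only.

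Because the genes differ in length, levels were compared between genes per kilobase of exon. In DKO the highest was Igkc at 29.2 ± 8.34 CPM per kb, followed by Igha at 4.81 ± 1.51 and Ighm at 4.70 ± 0.603 CPM per kb (SD, n = 3). In SKO the highest was Ighm at 13.9 ± 4.57 CPM per kb, next to Igkc at 12.9 ± 4.54, with Igha at 1.62 ± 0.200 CPM per kb (SD, n = 3). Igha and Ighm in DKO, and Ighm and Igkc in SKO, did not differ beyond the spread between libraries. Cd79b and Jchain followed in both groups, at 1.41 ± 0.504 and 1.17 ± 0.190 CPM per kb in DKO and at 1.11 ± 0.221 and 0.678 ± 0.122 CPM per kb in SKO. The lowest level per kb was that of Ms4a1 in both groups, at 0.164 ± 0.0582 CPM per kb in DKO and 0.180 ± 0.0554 CPM per kb in SKO, and Cd79a and Mzb1 lay between, within each other's spread.

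The constant genes of the other antibody classes were examined next. Of 13 annotated constant genes, 11 had a count in some library, while Ighe and Iglc4 had 0 in all. In these libraries 3 counts corresponded to 0.126 to 0.191 CPM, so a low level could have been missed. Ighg2b, the constant gene of IgG2b, was at 7.76, 2.29 and 5.13 CPM in DKO and 1.78, 1.04 and 1.80 CPM in SKO. The groups did not overlap, and DKO replicate 1 was the highest. Its log2 fold change was 1.73 ± 0.46 (SE; edgeR adjusted p = 0.0347), and the call was kept in 1 of the 6 fits that left out a library, that without DKO replicate 2 (adjusted p up to 0.124 in the others). Ighg2c, its IgG2c counterpart, had 119, 30 and 29 counts in DKO and 7, 14 and 6 counts in SKO, a difference of 2.36 on the log2 scale (SE 0.62; edgeR adjusted p = 0.0335) that was not called without SKO replicate 1, 2 or 3 in turn. Without DKO replicate 1, which held 119 of its counts, the value was 1.499. It was over the filter's cutoff in 3 DKO libraries and 1 SKO library, so part of this difference decided that it was tested. In limma-voom, neither Ighg2b (adjusted p = 0.0659) nor Ighg2c (adjusted p = 0.0513) was called.

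Ighd, whose delta chain is made by naive B cells from the same primary transcript as the mu chain, was not called. It had 57, 38 and 39 counts in DKO and 32, 25 and 38 counts in SKO, which is 2.09 ± 0.275 CPM in DKO and 1.85 ± 0.417 CPM in SKO (SD, n = 3 each), a difference of 0.19 on the log2 scale (SE 0.25; edgeR adjusted p = 0.645). There were 4.18, 4.16 and 4.38 Ighm counts per Ighd count in DKO, against 14.3, 24.0 and 7.68 in SKO. This ratio is free of scaling between libraries, and its groups did not overlap. The lambda light chain gene Iglc1 had 44, 15 and 10 counts in DKO and 3, 7 and 3 counts in SKO, a difference of 2.05 on the log2 scale (SE 0.60; edgeR adjusted p = 0.0392), called only without DKO replicate 2 or 3 among the 6 fits, and at 1.30 without DKO replicate 1. It passed the filter only through DKO, and it was not called in limma-voom (adjusted p = 0.0649).

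Among the scarcer constant genes, Ighg1 had 22 counts in DKO and 5 in SKO, a normalised ratio of 3.58 (95% counting interval 1.32 to 12.1), and Ighg3 had 19 counts in DKO and 5 in SKO, a ratio of 3.09 (1.12 to 10.6). Iglc3 had 32 counts in DKO and 16 in SKO, a ratio of 1.63 (0.867 to 3.18). None of these 3 was tested. The groups overlapped for Ighg3 and Iglc3 but not for Ighg1, and DKO replicate 1 held 12 of the Ighg3 counts. Their intervals pool the libraries of a group and cover counting error only. Iglc2 had 31 counts in DKO and 19 in SKO and was not called (log2 fold change 0.38 ± 0.82, SE; edgeR adjusted p = 0.786). Of the 50-base stretches of Ighm, Igha, Igkc, Jchain, Ighd and Iglc1, 0 were shared with another annotated gene, against 4.15% for Ighg2b, 5.49% for Ighg2c and 10.7% for Iglc3, whose counts could be divided with their close copies.

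**Figure D2:**
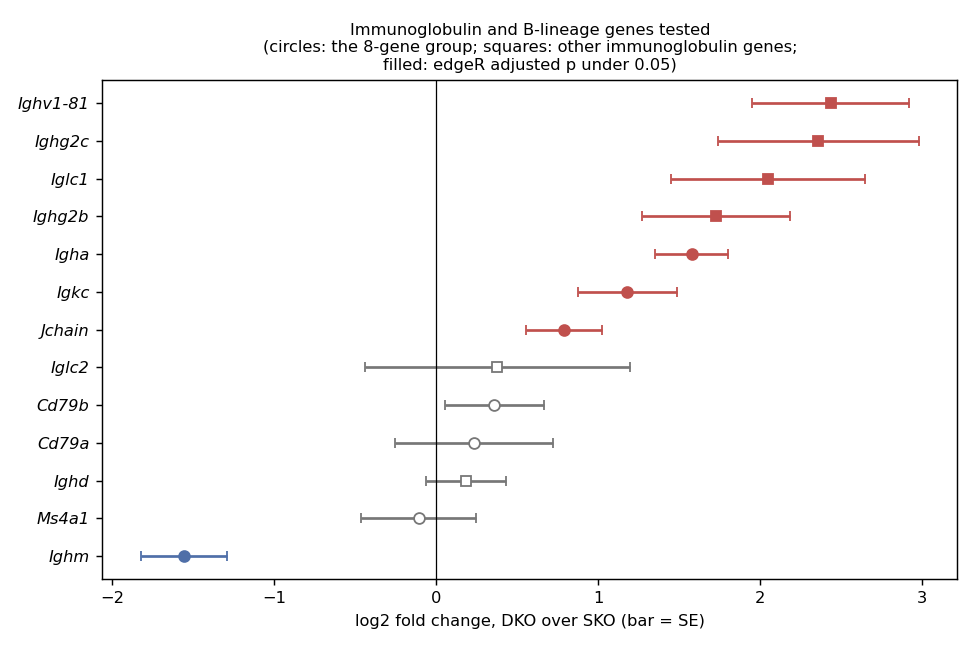
Log2 fold change of DKO over SKO (horizontal axis, with SE) for each tested immunoglobulin and B-lineage gene; circles are genes of the 8-gene group, squares other immunoglobulin genes, and filled symbols passed edgeR's adjusted p of 0.05. Ighm lies alone on the lower side at -1.56, while Igha, Igkc, Jchain, Ighg2b, Ighg2c, Iglc1 and Ighv1-81 lie on the higher side; Iglc1 and Ighv1-81 passed the filter only through DKO and Ighg2c mostly so, and they could be tested only because they were high there.

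Within the heavy chain constant counts, Ighm made up 23.0%, 32.5% and 30.4% in DKO, against 75.4%, 82.1% and 65.6% in SKO. The closest libraries were DKO replicate 2, with a 95% Wilson interval of 28.5% to 36.8%, and SKO replicate 3, with one of 61.1% to 69.9%. Igha made up 40.1%, 42.4% and 37.7% in DKO and 12.7%, 9.56% and 16.9% in SKO, so that Igha led the heavy chains in every DKO library and Ighm in every SKO library. The IgG genes together made up 31.4%, 17.3% and 24.9% in DKO and 6.60%, 4.92% and 8.99% in SKO. These shares rest on 1037, 486 and 562 heavy chain counts in DKO and on 606, 732 and 445 in SKO. They depend on one another, since a lower Ighm share by itself makes the other shares larger.

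**Figure D3:**
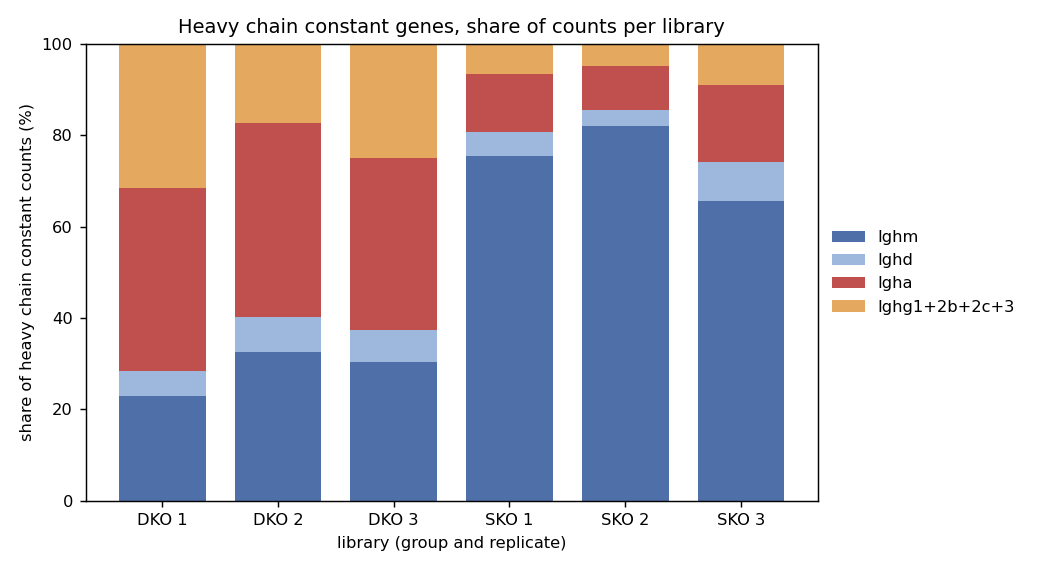
Share of heavy chain constant counts (vertical axis, percent) taken by Ighm, Ighd, Igha and the 4 IgG genes in each library, the 3 DKO libraries left and the 3 SKO libraries right. The Ighm share is at most 32.5% in DKO and at least 65.6% in SKO.

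Set against the kappa chain, there were 0.485, 0.615 and 0.663 Ighm counts per Igkc count in DKO, against 3.31, 4.26 and 3.95 in SKO. Ighm was lower and Igkc higher in every DKO library, so this ratio had to separate the groups. All heavy chain counts per light chain count were 1.84, 1.66 and 1.99 in DKO and 3.79, 4.66 and 5.30 in SKO, without overlap. That ratio includes Ighm and Igkc, so neither ratio is support beyond the levels of these genes. With Ighm left out, the heavy per light ratio was 1.42, 1.12 and 1.39 in DKO and 0.931, 0.834 and 1.82 in SKO, and the groups overlapped. Igkc made up 87.1%, 88.0% and 91.5% of light chain counts in DKO and 86.3%, 89.8% and 88.1% in SKO, so the kappa share overlapped between the groups. Jchain had 0.200, 0.257 and 0.25 counts per Igha count in DKO and 0.364, 0.357 and 0.467 in SKO, which is fewer in every DKO library.

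Summed over all constant genes, antibody transcripts were at 67.2, 38.0 and 43.8 CPM in DKO and 48.7, 48.7 and 29.8 CPM in SKO. The groups overlapped, at 49.6 ± 15.5 CPM in DKO and 42.4 ± 10.9 CPM in SKO (SD, n = 3 each), a ratio of 1.17 that fell to 0.964 without DKO replicate 1. Without Ighm, a sum chosen after the data were seen, the levels were 57.2, 30.3 and 34.9 CPM in DKO and 19.6, 15.8 and 13.3 CPM in SKO. That sum did not overlap between the groups and gave a ratio of 2.51. A sum over chosen genes was given no test.

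Variable (V) segments, which form part of the variable region of antibody chains, gave a second view of antibody RNA. Of 218 annotated V segments, 140 had a count in some library. V segment counts were 325, 132 and 134 in DKO and 62, 83 and 77 in SKO, or 13.6, 6.44 and 6.95 CPM in DKO and 3.94, 4.55 and 4.33 CPM in SKO. The groups did not overlap, and the ratio of their means was 2.11. DKO libraries had 92, 57 and 63 segments with a count and SKO libraries 43, 52 and 46, and these numbers depend on depth. At an equal depth of 62 V counts, 33.9, 34.2 and 38.6 segments are expected in DKO and 43.0, 42.7 and 40.0 in SKO, fewer in every DKO library, although the nearest libraries differed by little.

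The most counted segments were Igkv1-117 in DKO replicate 1, with 53 counts or 16.3% of its V counts (95% Wilson interval 12.7% to 20.7%), and Ighv1-81 in DKO replicates 2 and 3, with 24 counts or 18.2% (12.5% to 25.6%) and 14 counts or 10.4% (6.33% to 16.8%). In SKO the leading segments held 3 counts or 4.84% (1.66% to 13.3%), 6 counts or 7.23% (3.36% to 14.9%) and 6 counts or 7.79% (3.62% to 16.0%). Igkv1-117 was uneven within DKO, with 53, 20 and 5 counts there and 3, 1 and 4 in SKO. Ighv1-81 (chromosome 12, 115920279 to 115920712, minus strand) was the only V segment abundant enough to be tested, and it passed the filter only through DKO. It had 45, 24 and 14 counts in DKO and 3, 6 and 3 in SKO, and its log2 fold change was 2.44 (SE 0.49; edgeR adjusted p = 0.00791).

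The last 60 bases of the segments that led a library, chosen after their counts were seen, are shown because they end in the start of the antigen-contacting loop CDR3 and show how alike the kappa pair is. They are in sense orientation on GRCm38 (Ighv1-81 minus strand, Igkv plus strand), with the conserved cysteine codon that opens CDR3 in capitals.
Ighv1-81, chr12:115920279-115920338: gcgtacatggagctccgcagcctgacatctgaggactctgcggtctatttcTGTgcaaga
Igkv1-117, chr6:68121768-68121827: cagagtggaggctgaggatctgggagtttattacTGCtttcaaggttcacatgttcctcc
Igkv1-110, chr6:68271208-68271267: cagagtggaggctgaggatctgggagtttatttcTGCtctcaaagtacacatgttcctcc
The kappa pair is identical at 56 of the 60 bases. Igkv1-117 shares 49.9% of its 50-base stretches with other annotated genes, Igkv1-110 shares 50.9% and Ighv1-81 shares 11.6%, so reads of the kappa pair may have been divided or dropped in counting.

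**Figure D4:**
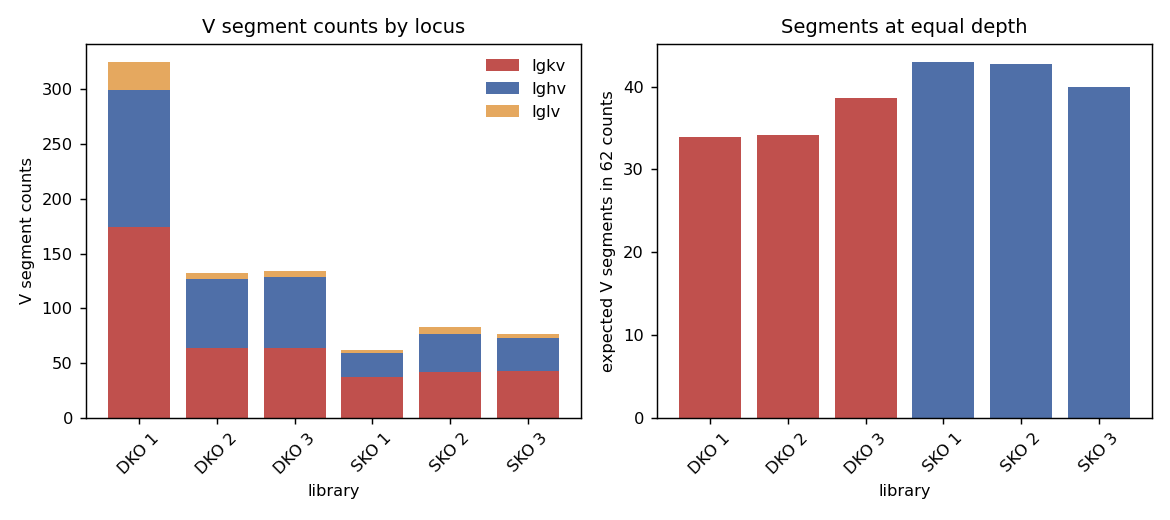
Left, V segment counts per library by locus (Igkv, Ighv and Iglv stacked). Right, number of V segments expected in 62 counts of each library. DKO libraries, drawn left of SKO, hold 132 to 325 V counts against 62 to 83, and 33.9 to 38.6 expected segments against 40.0 to 43.0.

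Genes that act with the antibody chains were examined in 9 lists of 141 gene entries, chosen with earlier results of these data known. The calls in each list stand beside 10.3% of all genes tested called higher in DKO and 9.70% called lower. Of 15 B-cell receptor coreceptors and regulators, 13 were tested, 1 was called higher and 0 lower, with a median log2 fold change of 0.33 beside 0.01 over all genes tested. The number called higher was 5 without DKO replicate 2, 2 without SKO replicate 1 and 0 without SKO replicate 2. It was 3 in DESeq2 and 6 without the filter. The number called lower was 1 in DESeq2, without the filter and without SKO replicate 2. The called gene was Cd72, an inhibitory coreceptor of B cells, at 5.75 ± 1.55 CPM in DKO and 2.75 ± 0.621 CPM in SKO (SD, n = 3 each; log2 fold change 1.07 ± 0.25 SE, edgeR adjusted p = 0.0152). Its call was lost without SKO replicate 2.

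Of 21 genes of B-cell receptor signalling, all tested, 5 were called higher and 0 lower (against the background of 10.3% called higher), with a median log2 fold change of 0.34. Without DKO replicate 1, DKO replicate 3, SKO replicate 2 or SKO replicate 3 the number higher was 1 of the 21, and it was 2 without SKO replicate 1 and in limma-voom. Inpp5d, the lipid phosphatase SHIP1, was at 12.5 ± 2.46 CPM in DKO and 6.90 ± 0.798 CPM in SKO (log2 fold change 0.86 ± 0.16 SE, edgeR adjusted p = 0.00589). Pik3cd, a lymphocyte PI3 kinase subunit, rose by 0.60 ± 0.16, Vav1, an exchange factor, by 0.77 ± 0.21 and Dapp1, an adaptor, by 0.84 ± 0.24 on the log2 scale (SE; edgeR adjusted p = 0.0296, 0.0286 and 0.0358). The fifth was the kinase Syk (0.86 ± 0.24 SE, edgeR adjusted p = 0.0442), which like Vav1 and Dapp1 was not called in limma-voom. Of the first 4, Inpp5d alone was called in every fit that left out a library. Pik3cd was lost without DKO replicate 1 or 3 or SKO replicate 2 or 3, and Vav1, Dapp1 and Syk were kept only without DKO replicate 2. Most of these genes are also used by macrophages and other leukocytes, whose markers are given below.

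Of 19 B-lineage transcription factors, 17 were tested, 1 was called higher and 0 lower, with a median log2 fold change of 0.24. Without 1 library, 0 to 3 were called higher, the 3 being without DKO replicate 2. Pou2f2, which encodes the immunoglobulin promoter factor OCT2, was at 4.22 ± 0.921 CPM in DKO and 2.36 ± 0.115 CPM in SKO (SD, n = 3 each; log2 fold change 0.84 ± 0.21 SE, edgeR adjusted p = 0.0223). The call was lost without DKO replicate 1 or 3 or SKO replicate 2 or 3.

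Of 17 plasma cell and secretory pathway genes, 15 were tested, 2 were called higher and 6 lower. The lower genes act in protein folding and export from the endoplasmic reticulum, and hepatocytes express them too. Txndc5, a disulfide isomerase, was at 118.5 ± 6.73 CPM in DKO and 223 ± 12.5 CPM in SKO (SD, n = 3 each; log2 fold change -0.91 ± 0.08 SE, edgeR adjusted p = 9.3e-05). Ssr4, a subunit of the translocon-associated complex, fell by 0.78 ± 0.07, Edem1, which sorts misfolded glycoproteins for degradation, by 0.72 ± 0.08 and Sec11c, a signal peptidase subunit, by 0.80 ± 0.10 on the log2 scale (SE; edgeR adjusted p = 8.5e-05, 0.000346 and 0.00064). The 2 higher genes were Sdc1, the plasma cell surface marker syndecan-1 that hepatocytes also express, at 268 ± 25.6 CPM in DKO and 175 ± 1.80 CPM in SKO (log2 fold change 0.61 ± 0.09 SE, edgeR adjusted p = 0.00154), and Slamf7, a receptor of plasma cells and other leukocytes, at 1.58 ± 0.480 CPM in DKO and 0.702 ± 0.182 CPM in SKO (1.17 ± 0.34 SE, edgeR adjusted p = 0.0376). The Slamf7 call was kept only without DKO replicate 2 among the fits that left out a library, and was lost in DESeq2 and limma-voom. Tnfrsf17, which encodes the plasma cell survival receptor BCMA, had 0, 1 and 0 counts in DKO and 0, 0 and 0 in SKO.

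Of 28 chemokine, adhesion and survival genes that draw or keep B cells, 13 were tested, 2 were called higher and 0 lower. Vcam1, an endothelial adhesion molecule for lymphocytes, was at 60.6 ± 13.9 CPM in DKO and 25.8 ± 5.53 CPM in SKO (SD, n = 3 each; log2 fold change 1.23 ± 0.23 SE, edgeR adjusted p = 0.0148). Cxcr4, a homing receptor of plasma cells and other leukocytes, was at 2.35 ± 0.612 CPM in DKO and 0.931 ± 0.318 CPM in SKO (1.34 ± 0.32 SE, edgeR adjusted p = 0.018), and its call was lost without DKO replicate 3 or SKO replicate 2. The B-cell chemokine gene Cxcl13 was at 2.60, 2.20 and 1.81 CPM in DKO and 1.52, 0.932 and 1.35 CPM in SKO, without overlap, but missed the threshold (0.81 ± 0.27 SE, edgeR adjusted p = 0.0597). Tnfsf13b, which encodes the survival factor BAFF, was not called either (0.59 ± 0.35 SE, edgeR adjusted p = 0.262), and Cxcr5, the receptor of CXCL13, had 19 counts in DKO and 14 in SKO.

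Among 12 genes of antibody transport and Fc receptors, 11 were tested, 2 were called higher and 2 lower. Pigr, the receptor that carries J-chain-bearing IgA and IgM into bile (chromosome 1, 130826684 to 130852249), was at 436, 488.5 and 548 CPM in DKO, against 1016, 912 and 955 CPM in SKO. The groups were far apart relative to their spread, and the log2 fold change was -0.97 (SE 0.11; edgeR adjusted p = 0.000411), called in all 6 fits that left out a library. Pigr was lower in DKO, where Igha and Jchain were higher, and a link between these differences was not tested. B2m, a subunit of the neonatal Fc receptor and of class I MHC, was lower (-0.40 ± 0.12 SE, edgeR adjusted p = 0.0401), a call lost with total-count or upper-quartile scaling and without each library except DKO replicate 3. The IgG receptor gene Fcgr1, expressed by macrophages and monocytes, rose by 1.07 ± 0.22 and its signalling chain Fcer1g by 0.72 ± 0.18 on the log2 scale (SE; edgeR adjusted p = 0.00868 and 0.025). The Fcer1g call was lost without DKO replicate 3, SKO replicate 2 or SKO replicate 3.

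Markers of other cells moved as well. Calls in all marker lists stand beside 10.3% of all genes tested called higher in DKO and 9.70% called lower. For single genes, the groups did not overlap for 39.6% of those tested. The 14 B-cell markers summed to 18.9 to 29.9 CPM in DKO and 15.3 to 21.3 CPM in SKO, with overlap, and 1 of the 13 tested was called higher. The 8 plasma cell markers summed to 11.1 to 18.1 CPM in DKO and 5.76 to 9.96 CPM in SKO, without overlap, and 1 of the 5 tested, Jchain itself, was called. In that list Tnfrsf17 was at or near 0, and Derl3, with 116, 117 and 229 counts in DKO and 28, 27 and 84 in SKO, was not called (edgeR adjusted p = 0.12). Derl3 had the highest mean of the list, 7.48 CPM in DKO and 2.66 CPM in SKO. Jchain was next, at 2.94 CPM in DKO and 1.71 CPM in SKO. All other genes of the list overlapped between the groups, so the gap in the sum rests mainly on Derl3 and Jchain. The 12 T-cell markers overlapped between the groups, at 7.03 to 10.2 CPM in DKO and 5.65 to 7.12 CPM in SKO, and 0 of 8 tested were called by edgeR.

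The 8 pan-leukocyte markers summed to 105 to 168 CPM in DKO and 67.6 to 92.0 CPM in SKO, with 4 of 8 called higher. The 7 Kupffer cell markers summed to 457 to 694 CPM in DKO and 358 to 447 CPM in SKO, with 2 of 7 called higher. The 7 markers of plasmacytoid dendritic cells, which share several regulators with B cells, summed to 10.2 to 17.8 CPM in DKO and 6.70 to 8.45 CPM in SKO, with 3 of 4 called higher. The 6 bile duct cell markers had the highest ratio of mean sums, 2.29, at 121 to 199 CPM in DKO and 61.1 to 73.9 CPM in SKO. Hepatocyte markers had a ratio of 0.595, with 4 of 7 called lower. The 7 red cell markers overlapped, at 352 to 434 CPM in DKO and 306 to 478 CPM in SKO, and their ratio was 0.984. Of the remaining lists, NK cell markers summed to 2.39 to 3.58 CPM in DKO and 1.97 to 3.11 CPM in SKO, and neutrophil markers to 4.88 to 11.96 CPM in DKO and 4.22 to 5.40 CPM in SKO, both with overlap. The part of these cells in the antibody gene differences was not tested.

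**Figure D5:**
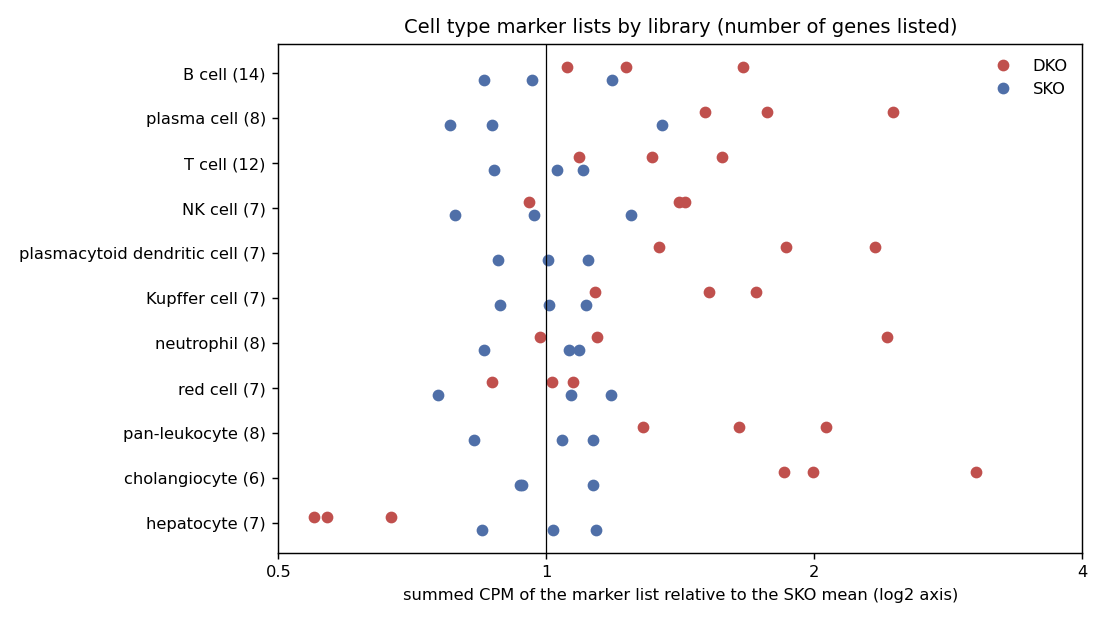
Summed CPM of 11 marker lists in each library relative to the SKO mean (log2 axis), with DKO points drawn above SKO points; list sizes are in parentheses. B-cell, T-cell, NK, neutrophil and red cell lists overlap between groups, bile duct cell markers are 2.29 times the SKO mean in DKO, and hepatocyte markers 0.595 times.

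The genes whose levels ran most like those of the antibody genes were sought over the 6 libraries, by the root mean square distance between centred log2 profiles. For Igkc, among 12693 genes, the nearest outside the immunoglobulin loci were Ssc5d (0.14 log2 units), Gdf15 (0.15), Golm1 (0.16), Cyp26b1 (0.17) and Cyp3a59 (0.18). For Cd79b the nearest were Gmpr (0.04), Casz1 (0.06), Il16 (0.06), Tspan13 (0.08) and Cd200 (0.09). The 6 libraries include both genotypes, so genes with a similar difference between DKO and SKO lie near each other. The genes listed for Igkc had log2 fold changes of 1.06 to 1.73, beside 1.18 for Igkc. These distances describe likeness over few points.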

How the data were processed

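Tools named in the submitters' processing notes are HTSeq 0.6.1p1, STAR, cutadapt 1.13 and DESeq2, with the build mm10. Neither the annotation release, nor the use of strand, nor the treatment of reads with several matches is stated in the labels. The authors deposited raw counts per Ensembl gene, 1 file per library, with 0 rows that name no gene. Symbols and positions came from GENCODE M21 (GRCm38, the assembly of mm10), which matched 54165 of 54232 identifiers.

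Counts were filtered with filterByExpr (minimum count 10, minimum total 15), scaled by TMM and fitted by robust quasi-likelihood in edgeR 4.0.16 under R 4.3.3, DKO over SKO, with 4 residual degrees of freedom and no covariate. P-values were Benjamini-Hochberg adjusted over 13986 genes. Each SE of a log2 fold change is its absolute value divided by the square root of the quasi-likelihood F statistic. The test was checked on simulated counts. Replicate libraries differed by more than sampling noise. Count ratios carry exact 95% intervals from pooled counts. Constant and V genes were taken from the annotation. Shared sequence was counted over 50-base stretches of annotated transcripts.

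The 8 genes and all lists were chosen with earlier results of these data known. Named were those genes, Xbp1, constant genes with a count, each list's called genes of smallest p, up to 4 (or, with 0 called, the 2 of highest mean CPM), and Pigr, Tnfsf13b, Cxcl13 and Cxcr5. Syk, Sdc1, Slamf7, Tnfrsf17, Derl3 and the V segments were named after their values were seen. Likeness used log2(CPM + 0.5) for genes of at least 1 CPM. Alternatives were DESeq2 1.42.0, limma-voom (limma 3.58.1), 3 other scalings, no filter and each library left out.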

Additional observations from a re-analysis of the deposited data

How the results depend on the processing

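The 2803 genes called became 4397 with total-count scaling and 1419 to 2739 without 1 library. With total-count scaling the median gene was at a log2 fold change of 0.23, and 87.8% of calls were higher in DKO, against 51.6% in the fit reported and 65.3% with upper-quartile scaling. The 4 calls among the 8 genes ranged from 2 to 4 without 1 library. Ighm (-1.81 to -1.33) and Igha (1.29 to 1.81) were called in all 12 alternative fits. Igkc ranged from 0.91 to 1.38 and Jchain from 0.64 to 0.91 without 1 library, and Jchain was 0.79 in DESeq2, not called (adjusted p = 0.0578). Uncalled values ranged without 1 library from -0.11 to 0.88 for Cd79a, -0.45 to 0.075 for Ms4a1 and 0.04 to 0.56 for Cd79b; Ms4a1 was 0.12 with total counts. Those of Ighd ran from -0.0012 (without SKO replicate 2) to 0.31, and those of Iglc2 from -0.23 (without SKO replicate 3) to 1.76. The 24 calls in the related lists became 37 with total counts, 40 without the filter and 13 to 32 without 1 library. The ratio of summed constant CPM, 1.17, was 1.38 on total counts, 2.51 without Ighm and 0.964 to 1.31 without 1 library. The ratio of V segments with a count, 1.504, was 2.79 at a minimum of 3 counts. The causes of these shifts were not tested. No paired analysis was possible because replicate numbers follow accession order and carry no pairing in the labels. Depth limits Mzb1, Cd79a, Ms4a1 and the scarce constant and V genes, with few counts per library.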

Other observations

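Genes of B-cell development and of germinal centres were mostly too scarce to test. Of 11 precursor genes, 4 were tested and 2 called higher, Cd93, a receptor of early B cells that endothelial cells also express, at 16.4 ± 2.55 CPM in DKO and 10.8 ± 1.49 CPM in SKO (SD, n = 3 each; log2 fold change 0.61 ± 0.14 SE, edgeR adjusted p = 0.0142), and Flt3, a receptor of progenitors and dendritic cells, at 1.11 ± 0.554 CPM in DKO and 0.411 ± 0.122 CPM in SKO (1.46 ± 0.45 SE, edgeR adjusted p = 0.0473). Flt3 passed the filter only through DKO, where it was high, so its call is no independent support. Among the 6 fits that left out a library, the Flt3 call was kept only without DKO replicate 2, and the Cd93 call was lost without SKO replicate 2 or 3. Of 9 germinal centre genes, 5 were tested and 1 called, Mybl1, at 2.12 ± 0.478 CPM in DKO and 0.626 ± 0.189 CPM in SKO (1.77 ± 0.31 SE, edgeR adjusted p = 0.00463), a call kept in all 6 of those fits. The median log2 fold change of the 5 tested was 0.19, so Mybl1 does not stand for the list.

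The 9 class II antigen presentation genes, shared by B cells, macrophages and dendritic cells, gave 0 calls in edgeR, 1 in DESeq2 and 2 in limma-voom, while 5 had an unadjusted p under 0.05 in edgeR. Their median log2 fold change was 0.77. Cd74, the invariant chain, was at 174 ± 42.0 CPM in DKO and 98.4 ± 32.4 CPM in SKO (0.82 ± 0.32 SE, edgeR adjusted p = 0.134), and H2-Aa at 75.2 ± 19.0 CPM in DKO and 41.0 ± 13.8 CPM in SKO (0.88 ± 0.33 SE, edgeR adjusted p = 0.13).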
